A study of Mus musculus with 24 samples.

Results

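Soleus and quadriceps of mice that lack nebulin in skeletal muscle were compared, to ask which differences between the muscles remain without the protein. The comparison used the 6 arrays titled soleus-cKO and the 6 titled quad-cKO, 12 of 24 arrays, where cKO stands for conditional knockout. It was run over every gene with a single symbol, and 15999 genes were left after dim ones were removed. Messenger RNA was read on Affymetrix arrays in 4 groups of 6: soleus cKO, quadriceps cKO, soleus control and quadriceps control. All animals were males aged 40 to 42 days, of mixed background with C57BL/6J as 1 strain and the other spelled 1219S6/SvEvTac in the labels. Every animal, the controls included, was homozygous for the conditional allele of nebulin (Neb). The cKO animals were also hemizygous for MCK-Cre, a recombinase under the muscle creatine kinase promoter, which the controls lacked. Cre was therefore present in both cKO muscles, and the promoter acts in muscle fibres, so other cells of the tissue were not targeted. By the submitters' account the quadriceps of the cKO had lost much of its size, while the soleus had not done so significantly.

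Nebulin runs along the thin filament and anchors it at the Z-disc, and its loss weakens force and causes nemaline myopathy in humans. The soleus is a postural muscle of the calf, rich in slow fibres that burn fat and sugar with oxygen. The quadriceps of the thigh is mostly made of fast fibres that rely on glycolysis and on rapid calcium release and uptake. Slow and fast fibres use different genes for nearly every sarcomere protein, so the muscles can be told apart by these genes. In whole muscle, fewer cells of a type and less RNA per cell cannot be told apart.

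Values are log2 intensities of 1 probe set per gene, and differences are soleus minus quadriceps unless another pair is named. Levels of different genes were not compared, because probe sets differ in brightness. Array medians lay between 4.74 and 4.94. Pairs of arrays of a group correlated across genes with r of 0.988 to 0.992 in soleus cKO, 0.988 to 0.993 in quadriceps cKO, 0.977 to 0.992 in soleus controls and 0.963 to 0.991 in quadriceps controls. The controls were the more uneven genotype: soleus control 1 had the lowest level of the fast gene Mybpc2 in its group (6.39, the others at least 8.46), and quadriceps controls 1 and 6 had the highest of the slow gene Myh7 (11.12 and 10.90, the others at most 9.37). Results that rest on the controls are therefore also given without soleus control 1 and quadriceps controls 1 and 6 where a count moved by over 1.5 times. These 3 arrays were chosen after the data were seen, by the levels of those fibre type genes. Quadriceps control 4 was not among them, although a fit that weighted arrays by quality gave it the lowest weight of any array (0.21). The weights were 0.39 for soleus control 1, 0.76 for quadriceps control 1 and 0.39 for quadriceps control 6. Without quadriceps control 4 alone, 5323 genes differed between the cKO muscles at a limma adjusted p under 0.05, against 4614 with it. The targeted gene Neb (chromosome 2 of mm10, positions 52136640 to 52338798) read 10.94 to 11.48 in soleus cKO with a median of 11.27, 10.50 to 11.16 in quadriceps cKO (median 10.82), 12.04 to 12.56 in soleus controls (median 12.46) and 12.11 to 12.50 in quadriceps controls (median 12.28). All 12 cKO arrays lay below all 12 control arrays. Neb was 1.33-fold higher in soleus cKO than in quadriceps cKO (log2 difference 0.41, SE 0.11, limma adjusted p = 0.00882), and this difference was not shown to be of another size than that in controls (adjusted p = 0.215). Whether the probes lie inside the deleted part of the gene is not given in the sources used here.

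In cKO, 4614 of 15999 genes differed between the muscles at a limma adjusted p under 0.05 (28.8%), 1907 higher in soleus (11.9%) and 2707 lower (16.9%). In controls, 5362 differed (33.5%), 2434 higher in soleus (15.2%) and 2928 lower (18.3%). Among the called genes, 219 in cKO were at least 1.5-fold higher in soleus and 617 at least 1.5-fold lower, against 511 and 742 in controls. At least 4-fold differences were seen in 27 genes in cKO and in 59 genes in controls. Across all genes the differences spread less in cKO (SD 0.33 on the log2 scale) than in controls (SD 0.38), and the 2 sets of differences correlated across genes with r of 0.58, as a description over genes of 2 separate sets of arrays. The counts moved with the fit. The 12 cKO arrays alone gave 6082 calls. With the animal as a fixed or random block, 5660 and 5817 genes were called in cKO and 6211 and 6308 in controls. Array weights gave 6841 in cKO and 6102 in controls, and quantile normalization 3670 and 5204. Whether fewer genes differed in cKO than in controls was thus not settled. How the calls split into higher and lower depended on how the arrays were scaled. As deposited, 41.3% of the cKO calls were higher in soleus, against 68.6% with each array centred on its 75th percentile, 24% with each centred on its median and 45.3% after quantile normalization. The median difference of all genes in cKO was -0.01, 0.09, -0.07 and 0.01 under these settings in the same order. Small differences should be read against that shift, and no called difference of a gene named here changed sign under any alternative run. Counts of called genes in the lists below should be read against the shares of all genes, 11.9% higher and 16.9% lower in cKO, and 15.2% and 18.3% in controls. For list counts of cKO against control within a muscle, the share of all genes is not given here. Those counts therefore only describe the lists.

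Of the 4614 muscle differences called in cKO, 2159 were also called in controls (46.8% of the cKO calls and 40.3% of the control calls), 2015 of them with the same sign. A test of the cKO difference against the control difference, here called the difference of differences, passed for 1966 genes (12.3%). By these tests 1810 genes (11.3%) kept their muscle difference: they were called in both genotypes with 1 sign, and the difference of differences was not called. Another 205 had the same sign but another size, 173 smaller in cKO and 32 larger. For 986 genes only the control difference was called and for 546 only the cKO difference, each with the difference of differences called, and 144 were called in both with opposite signs. A further 4126 genes were called in 1 genotype while the difference of differences was not called, so that they cannot be placed. The 27 genes with at least 4-fold differences in cKO were 13 kept, 10 of another size and 4 of the cKO-only class, and the 59 of controls were 20 kept, 31 of another size, 7 of the control-only class and 1 that cannot be placed. With the 2 muscles of an animal as a random block, the difference of differences passed for 2952 genes, and the classes of another size, cKO only and opposite sign held 359, 842 and 260 genes. Without soleus control 1 and quadriceps controls 1 and 6 it passed for 3724 genes, and the kept, other-size, control-only, cKO-only and opposite classes held 1478, 394, 1807, 957 and 393. Of the 5 classes only the kept one stayed within 1.5 times its size under both settings. A kept difference means that no change of size was found, not that the sizes were shown to be equal. In the control-only and cKO-only classes, a difference not called in the other genotype was not shown to be absent there.

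**Figure D1:**
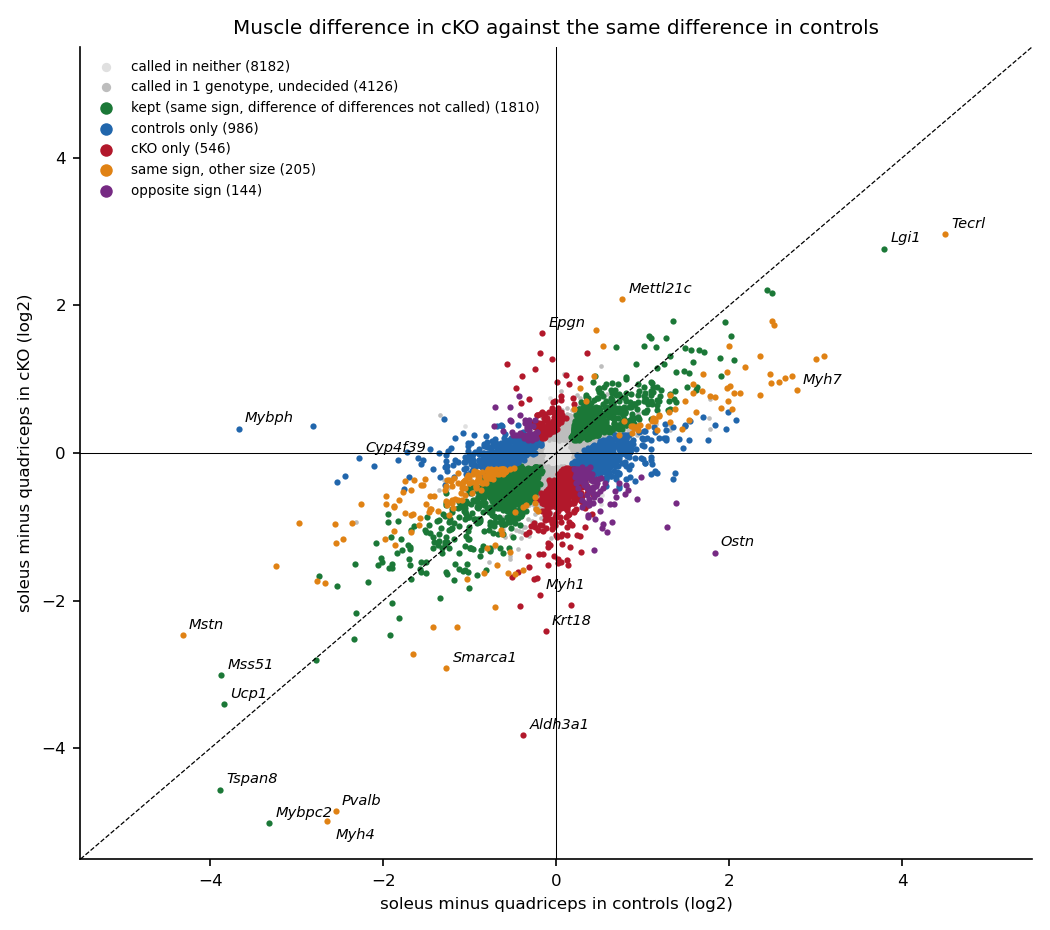
Each point is 1 of 15999 genes, with the soleus minus quadriceps difference (log2) in cKO on the y axis and in controls on the x axis, coloured by class, and the dashed line marks equal differences. The 1810 kept genes have 1 sign in both genotypes without a called change of size, and some of them, such as Mybpc2, lie off the line. Slow genes such as Myh7 lie below it on the right, and Aldh3a1, Krt18 and Epgn lie near 0 in controls.

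Slow fibre contractile genes were higher in soleus cKO than in quadriceps cKO for all 12 tested members, with a median difference of 0.98, against 2.49 in controls and -0.01 over all genes tested in cKO. Each of the 12 read higher in every soleus cKO array than in every quadriceps cKO array, as 5.33% of all genes did. The difference was smaller in cKO than in controls for 8 of the 12, and for 10 without the 3 control arrays named above. The quadriceps controls among those arrays were picked for high Myh7, itself a member of this list. Leaving them out widens the control difference of Myh7 and of genes that vary with it, so the count of 10 is not an independent check. Myh7, the slow myosin heavy chain, read 12.91 to 12.99 in soleus cKO (median 12.97) and 11.91 to 12.37 in quadriceps cKO (median 12.09), against 12.46 to 12.92 in soleus controls (median 12.51) and 8.98 to 11.12 in quadriceps controls (median 9.33). Quadriceps cKO thus lay above every quadriceps control and below every soleus array of either genotype. Myh7 was 1.8-fold higher in soleus in cKO (log2 0.85, SE 0.25, adjusted p = 0.0145) and 6.88-fold higher in controls (2.78, adjusted p = 3.01e-09), with a difference of differences of -1.93 (adjusted p = 0.000769). The highest value of any probe set on any array was 13.3, so Myh7 read near the top of the range, and the part of this in the smaller difference was not tested.

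The troponin complex of slow fibres makes the thin filament respond to calcium. Tnnc1, its calcium-binding subunit, read 12.16 to 12.25 in soleus cKO (median 12.19) and 10.59 to 11.22 in quadriceps cKO (median 10.92), against 11.36 to 12.11 in soleus controls (median 11.54) and 7.81 to 9.52 in quadriceps controls (median 8.35). The groups did not overlap in either genotype, and the gap was 2.5-fold in cKO (adjusted p = 1.55e-05) against 8.5-fold in controls. The inhibitory subunit Tnni1 differed 2.42-fold in cKO and 7.98-fold in controls, and the tropomyosin-binding subunit Tnnt1 2.02-fold and 6.29-fold. The Z-disc protein Myoz2 went the same way, at 1.76-fold in cKO and 4.16-fold in controls. Over the whole list, quadriceps cKO exceeded quadriceps controls for 12 of 12 members (median 1.81), and soleus cKO exceeded soleus controls for 3 and fell below them for 1 (median 0.29). These last comparisons share the cKO arrays with the muscle comparison.

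Among other slow genes, Myl6b, Myh7b and Mhrt were of the kept class and Myl3 was not. Myl6b, a myosin light chain of slow and embryonic fibres, read 10.75 to 11.01 in soleus cKO (median 10.86) and 8.44 to 9.03 in quadriceps cKO (median 8.67), without overlap. It was 4.5-fold higher in soleus in cKO (log2 2.17, SE 0.18, adjusted p = 2.04e-09) and 5.62-fold in controls, although both muscles read more than 2 log2 units higher in cKO than in controls (2.22 in soleus, 2.54 in quadriceps). Myh7b, a slow-type myosin gene, was 2.58-fold higher in cKO and 3.27-fold in controls. Myl3, the ventricular and slow light chain, was 3.46-fold higher in cKO and 5.67-fold in controls, a smaller difference (adjusted p = 0.00909). Mhrt, a long noncoding RNA of chromosome 14 (54968787 to 54974349) that overlaps Myh7 (54970684 to 54994626), was 4.61-fold higher in cKO and 5.42-fold in controls. Signal of this overlapping pair was not told apart here.

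**Figure D2:**
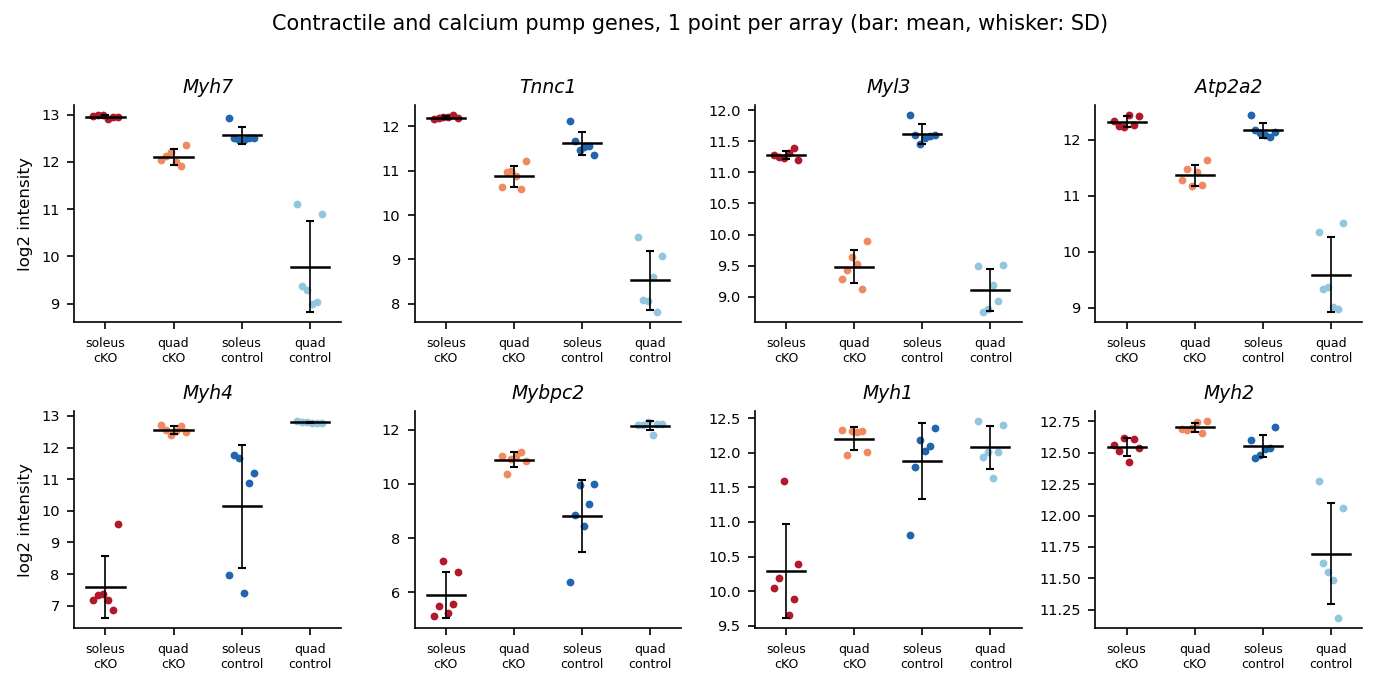
Log2 intensity of 8 genes on every array, with soleus cKO, quadriceps cKO, soleus controls and quadriceps controls from left to right; bars are means and whiskers SDs of 6 arrays. Slow genes (Myh7, Tnnc1, Myl3, Atp2a2) are higher in soleus in both genotypes, while Myh4, Mybpc2 and Myh1 reach their lowest values in soleus cKO.

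Fast fibre contractile genes ran the other way: 13 of 14 tested were lower in soleus cKO than in quadriceps cKO and none was higher, with a median of -0.84, against 12 lower and 1 higher in controls (median -0.81). All 13 read lower in every soleus cKO array than in every quadriceps cKO array, as 10.6% of all genes did. Mybpc2, the fast form of myosin-binding protein C (chromosome 7, 44501699 to 44524715), showed the widest gap of all named genes. It read 5.13 to 7.14 in soleus cKO (median 5.53) and 10.38 to 11.18 in quadriceps cKO (median 10.96), against 6.39 to 10.01 in soleus controls (median 9.05) and 11.81 to 12.28 in quadriceps controls (median 12.19). The muscles did not overlap in either genotype, and the difference was 32.3-fold in cKO (log2 -5.01, SE 0.41, adjusted p = 1.16e-09) and 10-fold in controls (-3.32). The difference of differences was not called (adjusted p = 0.054).

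The fast myosin heavy chain genes lie side by side on chromosome 11 and are alike in sequence, and cross-hybridisation between their probe sets was not tested. Myh4, which encodes the fastest heavy chain (type IIb), read 6.87 to 9.57 in soleus cKO (median 7.26) and 12.40 to 12.72 in quadriceps cKO (median 12.55), against 7.41 to 11.78 in soleus controls (median 11.03) and 12.77 to 12.84 in quadriceps controls (median 12.79). The highest soleus cKO value came from array 6 and the 5 others stayed at or below 7.38, and among soleus controls arrays 1 and 4 were low (7.97 and 7.41). Myh4 was 31.5-fold lower in soleus in cKO (adjusted p = 1.79e-07) and 6.27-fold lower in controls, and the difference of differences (-2.33, adjusted p = 0.0486) was lost when any of 20 single arrays was left out, with adjusted p between 0.00511 and 0.0904 over all 24. Myh1, the type IIx heavy chain, was of the cKO-only class. It read 9.65 to 11.59 in soleus cKO (median 10.11) and 11.96 to 12.32 in quadriceps cKO (median 12.31), against 10.81 to 12.36 in soleus controls (median 12.06) and 11.64 to 12.46 in quadriceps controls (median 12.01). Soleus cKO lay below quadriceps cKO on every array and the control muscles overlapped. The fold was 3.77 in cKO (log2 -1.92, SE 0.24, adjusted p = 1.71e-06), and the difference of differences was -1.72 (adjusted p = 0.00151). Myh2, the type IIa heavy chain, read lower on every soleus cKO array (12.43 to 12.62) than on every quadriceps cKO array (12.66 to 12.75), without passing the test (log2 -0.16, adjusted p = 0.298), and it was 1.81-fold higher in soleus in controls; in the fit of the 12 cKO arrays alone its adjusted p was 0.0311.

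Among the other fast genes, the fast Z-disc crosslinker Actn3 read 9.83 to 10.95 in soleus cKO (median 10.43) and 12.12 to 12.59 in quadriceps cKO (median 12.47), without overlap. Its 4.08-fold difference in cKO and 3.74-fold difference in controls were of the kept class, as were those of the calcineurin-binding protein Myoz1 (2.24-fold and 2.27-fold) and the fast troponin C gene Tnnc2 (1.53-fold and 1.36-fold). The fast troponin subunits Tnni2 and Tnnt3 differed more in cKO (2.06-fold and 1.63-fold) than in controls (1.56-fold and 1.27-fold). Mylk4, a myosin light chain kinase family member, was 5.49-fold lower in soleus in cKO and 3.79-fold in controls, of the kept class. Both muscles had lower Mylk4 in cKO than in controls (log2 -2.31 in soleus and -1.78 in quadriceps).

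Thin filament and Z-disc genes leaned towards the soleus in cKO, with 17 of 31 higher and 3 lower (median 0.22), against 11 higher and 10 lower in controls (median 0.07). With each array centred on its median, 10 were higher and 4 lower in cKO. The actin-bundling proteins Synpo2 (1.46-fold in cKO, 1.3-fold in controls) and Synpo2l (1.54-fold and 1.24-fold) were higher in soleus in both genotypes. Tmod1, which caps the pointed end of the thin filament, read 10.07 to 10.43 in soleus cKO (median 10.25) and 10.84 to 11.18 in quadriceps cKO (median 11.02). It was lower in every soleus cKO array, by 1.7-fold in cKO and 2.29-fold in controls. Genes of titin, obscurin and the M-band were 2 higher and 4 lower among 13 in cKO. Myom2, the M-band protein of fast fibres, read 8.19 to 9.02 in soleus cKO (median 8.54) and 11.01 to 11.42 in quadriceps cKO (median 11.26), and was 6.6-fold lower in soleus in cKO against 3.17-fold in controls, a larger difference (adjusted p = 0.0017). Myom3, its counterpart in slow and intermediate fibres, was 1.75-fold higher in soleus in cKO against 4.38-fold in controls, a smaller one (adjusted p = 0.00899).

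Genes of mechanical stress and sarcomere repair were higher in soleus cKO for 12 of 23 and lower for 1 (median 0.35), close to the 12 higher and 4 lower of controls (median 0.33). The calcineurin modulator Lmcd1 read 11.45 to 11.71 in soleus cKO (median 11.60) and 10.73 to 11.13 in quadriceps cKO (median 11.01), with no overlap, and its 1.54-fold difference in cKO was of the kept class (1.83-fold in controls). Flnc, a filamin at the Z-disc and at sites of damage, was 1.48-fold higher in cKO and 1.51-fold in controls. The Z-disc scaffold Ldb3 stood apart, since it was 1.28-fold higher in soleus in cKO (adjusted p = 0.000975) with no called difference in controls (log2 -0.14), and the difference of differences was 0.49 (adjusted p = 0.00292). Csrp3, a Z-disc LIM protein, kept its direction at a smaller size, 1.51-fold in cKO against 4.08-fold in controls. Both muscles had more Csrp3 in cKO, by 1.5 on the log2 scale in soleus and 2.94 in quadriceps.

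Calcium pumps, their regulators and calcium buffers were 3 higher and 7 lower of 15 in soleus cKO (median -0.21), and the difference of differences was called for 10. Pvalb, the soluble calcium buffer of fast fibres, read 5.62 to 8.12 in soleus cKO (median 7.15) and 11.74 to 12.21 in quadriceps cKO (median 12.02), against 8.82 to 10.84 in soleus controls (median 10.26) and 12.49 to 12.75 in quadriceps controls (median 12.64). Soleus cKO was the lowest of the 4 groups, with no overlap with any other. The difference was 28.8-fold in cKO (log2 -4.85, SE 0.30, adjusted p = 4.69e-12) against 5.87-fold in controls, with a difference of differences of -2.3 (adjusted p = 0.000613). Atp2a2, the slow calcium pump, read 12.24 to 12.44 in soleus cKO (median 12.30) and 11.18 to 11.65 in quadriceps cKO (median 11.35), against 12.05 to 12.44 in soleus controls (median 12.13) and 8.98 to 10.51 in quadriceps controls (median 9.35). Its pattern was that of the slow contractile genes, with 1.95-fold in cKO against 5.97-fold in controls. The fast pump Atp2a1 was 1.66-fold lower in soleus in cKO and 1.31-fold lower in controls, and the call on the difference of differences was lost with the animal as a fixed block without number 4 (adjusted p = 0.0647). The slow calsequestrin Casq2 was 1.63-fold higher in cKO and 3.95-fold in controls. Mrln, the micropeptide that restrains the pump, was 1.77-fold lower in soleus in cKO and 3.17-fold lower in controls. Sarcolipin (Sln), a related inhibitor, read 7.36 to 7.49 in soleus cKO and 6.88 to 7.29 in quadriceps cKO. Its 1.28-fold difference did not pass the test (adjusted p = 0.228), but passed in the fit of the cKO arrays alone (adjusted p = 0.00149), and in controls soleus was 2.81-fold higher.

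Triad and excitation-contraction coupling genes, which couple the nerve impulse to calcium release, were 1 higher and 2 lower among 16 in cKO, against 2 higher and 9 lower in controls, and the difference of differences was higher for 6. The cKO counts were below the 11.9% and 16.9% of all genes. Ryr3, a ryanodine receptor of immature and some adult muscle, was the member that was higher. It read 6.14 to 6.59 in soleus cKO (median 6.40) and 5.17 to 5.49 in quadriceps cKO (median 5.39), against 4.28 to 5.22 in soleus controls (median 4.37) and 4.09 to 4.41 in quadriceps controls (median 4.25). Soleus cKO exceeded every other array, and the 2.03-fold difference (adjusted p = 4.77e-07) was of the cKO-only class (difference of differences 0.74, adjusted p = 0.00467). Cacng1, a subunit of the voltage sensor, was lower in soleus in both genotypes, 2.1-fold in cKO and 2.82-fold in controls. Sarcolemmal channels and pumps were 1 higher and 5 lower of 14 in cKO. The potassium channel Kcnc4 was 2.35-fold lower in soleus in cKO against 3.62-fold in controls, and the sodium pump subunit Atp1b2 2.25-fold against 5.54-fold, both smaller differences in cKO. The carbonic anhydrase Car14 showed a larger difference instead: it read 5.07 to 5.34 in soleus cKO (median 5.22) and 6.99 to 7.53 in quadriceps cKO (median 7.33), 4.26-fold lower in cKO against 1.63-fold in controls (difference of differences adjusted p = 2.79e-05).

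Glycolysis and glycogen genes were mostly lower in soleus in both genotypes. Of 32 tested, 22 were lower and 1 higher in soleus cKO (median -0.47), against 21 lower and 3 higher in controls (median -0.76). The kept class held 15 of them, beside 11.3% of all genes, and 6 were of another size. Gpd1, the cytosolic glycerol-3-phosphate dehydrogenase, read 7.22 to 7.94 in soleus cKO (median 7.45) and 9.63 to 10.36 in quadriceps cKO (median 10.10). It was 5.73-fold lower in soleus in cKO (log2 -2.52, SE 0.20, adjusted p = 8.19e-10) and 5.05-fold in controls, with a difference of differences of -0.18 (adjusted p = 0.735). The glucose phosphate mutase Pgm1 read 8.84 to 9.08 in soleus cKO (median 9.0) and 10.23 to 10.71 in quadriceps cKO (median 10.47), a 2.8-fold difference against 2.95-fold in controls. Subunits of phosphorylase kinase, which starts glycogen breakdown, moved together, with Phkg1 3.37-fold, Phka1 2.46-fold and Phkb 2.41-fold lower in soleus cKO. Pgk1, a glycolytic kinase, was 2.04-fold lower and Fbp2, the muscle fructose bisphosphatase, 3.24-fold lower. All of these were lower in soleus in controls too and of the kept class, as drawn in the plot of kept genes. Gpd2, the mitochondrial partner of Gpd1, differed less in cKO (3.38-fold) than in controls (6.38-fold, adjusted p = 0.00769).

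**Figure D3:**
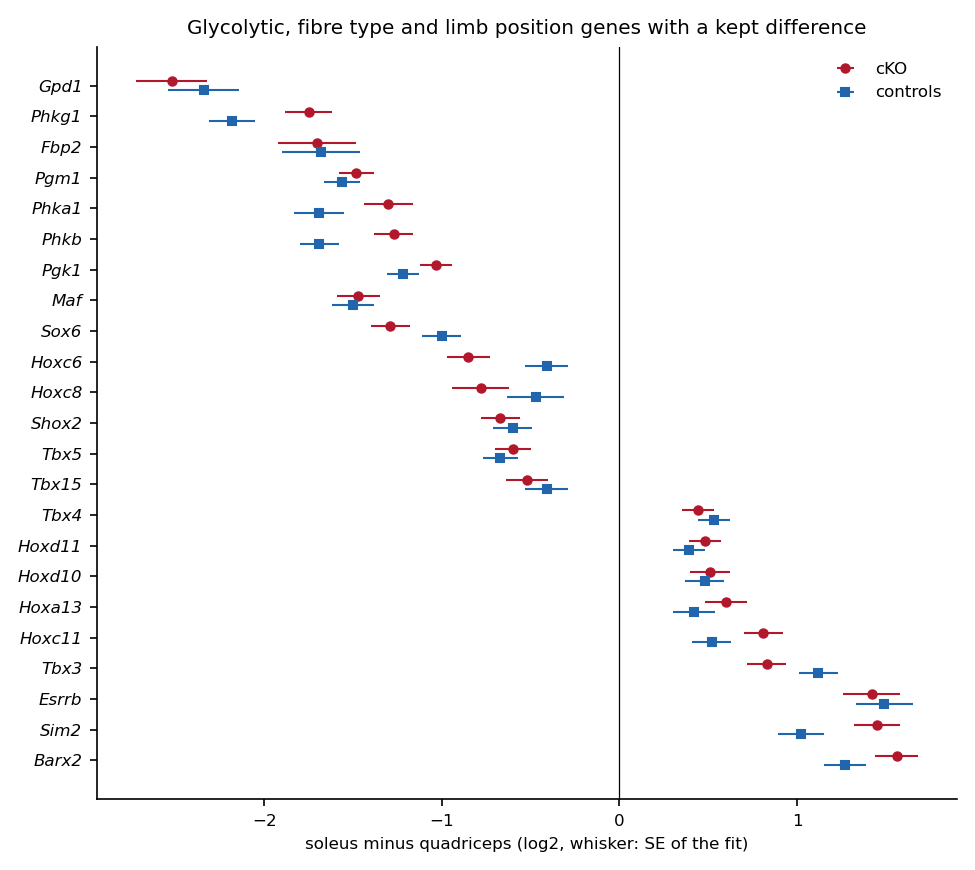
Soleus minus quadriceps differences (log2, whiskers are SEs of the fit, 6 arrays per group) of 23 kept genes, with circles for cKO and squares for controls. The genes were picked from the kept class, so both genotypes lie on the same side of 0 by definition. The differences run from Gpd1 at -2.52 in cKO to Barx2 at 1.56 in cKO.

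At the step where pyruvate is turned to lactate or burnt, the lactate dehydrogenase genes ran in opposite directions. Ldha, the form of fast muscle, was 2.43-fold lower in soleus in cKO and 1.74-fold in controls, and Ldhb, the form of oxidative muscle, was 2.11-fold higher in cKO and 2.89-fold in controls. The mitochondrial isocitrate dehydrogenase Idh2 was 1.63-fold higher in soleus in cKO and 2.81-fold in controls. Idh3a, of the same list, ran the other way in cKO, at 9.71 to 9.99 in soleus and 10.57 to 10.92 in quadriceps, without overlap. Of 27 pyruvate and citric acid cycle genes 4 were higher and 8 lower in soleus cKO. Of 22 genes of mitochondrial fatty acid oxidation none was higher and 2 were lower in soleus cKO (median -0.02), against 14 higher and 3 lower in controls (median 0.34). The difference of differences was lower for 6 of the 22, and for 11 without the 3 control arrays. Hadhb, a subunit of the trifunctional protein of that pathway, read 10.54 to 10.71 in soleus cKO (median 10.69) and 10.38 to 10.66 in quadriceps cKO (median 10.50), against 10.87 to 11.08 in soleus controls (median 10.93) and 10.18 to 10.62 in quadriceps controls (median 10.45). The cKO muscles overlapped (1.12-fold, adjusted p = 0.0879), although the difference passed in 5 alternatives, with the animal as a random block (0.0496) or a fixed one without number 4 (0.044), without quadriceps control 4 (0.0468), with array weights (0.0147) and with arrays centred on their 75th percentile (0.00499). The control muscles did not overlap (adjusted p = 3.42e-06). Soleus cKO fell below soleus controls for 18 of the 22 genes (median -0.57) and quadriceps cKO below quadriceps controls for 12 (median -0.31).

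Oxidative phosphorylation genes were 4 higher and 8 lower of 76 in soleus cKO (median -0.07), against 4 higher and 22 lower in controls (median -0.08). These counts hang on the scaling, with 12 higher and 1 lower when arrays were centred on their 75th percentile and 4 higher and 18 lower when centred on their median. Cox6a2, the muscle form of a cytochrome oxidase subunit, read 11.16 to 11.30 in soleus cKO (median 11.22) and 10.45 to 10.95 in quadriceps cKO (median 10.74), 1.43-fold higher without overlap, and was 1.24-fold higher in controls. Among genes that activate and store fatty acids 4 were higher and 8 lower of 24, beside 11.9% and 16.9% of all genes. Acsl4, an acyl-CoA synthetase, was 2.43-fold lower in soleus in cKO and 1.7-fold in controls, and the mitochondrial thioesterase Acot2 was 1.84-fold higher in cKO against 3.92-fold in controls. Of the creatine and adenine nucleotide genes 1 was higher and 5 were lower of 16. Gatm, the first enzyme of creatine synthesis, read 6.26 to 6.86 in soleus cKO (median 6.76) and 7.89 to 8.49 in quadriceps cKO (median 8.16), 2.85-fold lower in soleus in cKO against 1.61-fold in controls. Gamt, the enzyme of the next step, read 7.38 to 8.10 in soleus cKO (median 7.83) and 7.56 to 8.08 in quadriceps cKO (median 7.73), against 5.46 to 6.61 in soleus controls (median 5.86) and 7.18 to 8.17 in quadriceps controls (median 7.74). The soleus controls alone stood low, with a muscle difference of log2 0.01 in cKO and of 3.33-fold in controls (difference of differences adjusted p = 3.42e-05).

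Transcription regulators of fibre type were 5 higher and 7 lower of 34 in soleus cKO (median 0.06), against 14 higher and 7 lower in controls (median 0.17). Of all genes 11.9% were higher and 16.9% lower in soleus cKO, so the cKO counts lay near that background. Maf, of a family that drives the type IIb programme, read 7.26 to 7.61 in soleus cKO (median 7.47) and 8.73 to 9.01 in quadriceps cKO (median 8.99). It was 2.77-fold lower in soleus in cKO and 2.82-fold in controls, with a difference of differences of 0.03 (adjusted p = 0.947). Sox6, which represses slow genes, was 2.44-fold lower in cKO and 1.99-fold in controls, without overlap between the cKO muscles (6.59 to 6.82 in soleus, 7.65 to 8.17 in quadriceps). Eya4 was 1.75-fold lower in soleus in cKO against 2.77-fold in controls. On the slow side, the nuclear receptor Esrrb read 6.02 to 7.03 in soleus cKO (median 6.44) and 4.72 to 5.55 in quadriceps cKO (median 4.97), 2.67-fold higher in cKO and 2.8-fold in controls. Prox1, a homeobox regulator of slow genes, was 2.25-fold higher in cKO and 4.52-fold in controls, a smaller difference (adjusted p = 0.00311). Tead1, which binds promoters of slow genes, was 1.52-fold higher in cKO and 1.68-fold in controls.

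Hox, Tbx and related genes mark position along the body and the limb. Of 46 such genes 16 were higher and 9 lower in soleus cKO (median 0.13), against 14 higher and 11 lower in controls (median 0.09). The kept class held 16 of them, beside 11.3% of all genes. The classes of another size, control only, cKO only and opposite sign held 1, 3, 1 and 1. Barx2, a homeobox gene of muscle precursors, read 6.67 to 7.03 in soleus cKO (median 6.76) and 4.99 to 5.60 in quadriceps cKO (median 5.17), 2.96-fold higher in cKO (adjusted p = 3.72e-10) and 2.41-fold in controls. Sim2, a transcription factor of the developing limb muscles, was 2.74-fold higher in cKO and 2.03-fold in controls. In the HoxC cluster the gene nearer the 5' end, Hoxc11, was 1.75-fold higher in soleus cKO, whereas Hoxc6 and Hoxc8 were 1.8-fold and 1.72-fold lower. Hoxa13, Hoxd10 and Hoxd11 were 1.51-fold, 1.43-fold and 1.4-fold higher. Tbx3 and Tbx4 were 1.78-fold and 1.36-fold higher in soleus cKO, and Tbx5, Tbx15 and Shox2 were 1.51-fold, 1.43-fold and 1.59-fold lower. Each of these Hox, Tbx and Shox2 differences had the same sign in controls and was of the kept class. Levels of Tbx5 were low, and 2 soleus cKO arrays lay under the dim limit (the 30th percentile of an array), as did 3 quadriceps cKO arrays for Hoxa13.

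Many of the widest differences lay outside these groups. The dim limit was 3.51 to 3.72 over the arrays. Tspan8, a membrane tetraspanin on chromosome 10 (115816817 to 115849893), lay below the dim limit on all 6 soleus cKO arrays and read 7.43 to 8.27 in quadriceps cKO (median 7.81), which makes it at least 17.7-fold lower in soleus (adjusted p = 4.08e-15). Mss51, a mitochondrial regulator that growth inhibitors of the myostatin family induce, read 4.14 to 5.01 in soleus cKO (median 4.44) and 7.22 to 8.19 in quadriceps cKO (median 7.31), 8.06-fold lower in cKO and 14.6-fold in controls. Myostatin (Mstn), the secreted brake on muscle growth, read 3.20 to 3.81 in soleus cKO (median 3.43, with 4 arrays under the dim limit) and 5.24 to 7.13 in quadriceps cKO (median 5.92), against 3.31 to 4.76 in soleus controls (median 4.42) and 7.48 to 9.24 in quadriceps controls (median 8.87). The muscles did not overlap in either genotype, and the fitted difference was 5.52-fold in cKO and 19.9-fold in controls. With most soleus cKO arrays under the dim limit, the size of the cKO difference, and so whether it was smaller than that of controls, is uncertain. Tlcd4 was 4.47-fold lower in soleus in cKO and 4.96-fold in controls. Smarca1, a chromatin remodeller, read 3.87 to 4.29 in soleus cKO (median 4.13) and 6.54 to 7.48 in quadriceps cKO (median 7.02), 7.51-fold lower in cKO against 2.41-fold in controls, a larger difference (adjusted p = 1.46e-06).

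On the soleus side, Tecrl, an endoplasmic reticulum reductase of striated muscle, read 8.37 to 9.52 in soleus cKO (median 9.10) and 5.44 to 6.58 in quadriceps cKO (median 6.29), against 7.06 to 8.53 in soleus controls (median 7.27) and 2.53 to 4.02 in quadriceps controls (median 3.11, with 5 arrays under the dim limit). It was 7.81-fold higher in soleus in cKO (adjusted p = 7.81e-09), smaller than in controls (difference of differences -1.53, adjusted p = 0.0098). Lgi1, a secreted protein best known from synapses, read 7.36 to 8.59 in soleus cKO (median 8.11) and 4.51 to 6.01 in quadriceps cKO (median 5.33), 6.83-fold higher in cKO and 13.9-fold in controls, of the kept class. Sbk3, Nlrc3, Scn3b, Pcp4l1 and Uchl1 were between 3.46-fold (Sbk3) and 2.96-fold (Uchl1) higher in soleus cKO and were also of the kept class, and none of the 5 overlapped between the cKO muscles. Rspo3, a Wnt agonist, was 3.32-fold higher in cKO and 5.72-fold in controls, and its difference of differences (adjusted p = 0.0434) was lost when any of 14 single arrays was left out. The methyltransferase Mettl21c read 9.93 to 10.46 in soleus cKO (median 10.33) and 7.71 to 8.53 in quadriceps cKO (median 8.30), 4.23-fold higher in cKO against 1.7-fold in controls, a larger difference (adjusted p = 0.00233).

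Interferon-stimulated genes were called between the muscles in cKO and not in controls. Interferons, the signalling proteins of antiviral defence, switch these genes on, and many of the products detect or block viral RNA. Of 15 tested, 12 were lower in soleus cKO than in quadriceps cKO and none was higher (median -0.68), none was called between control muscles (median 0.13; 0 at an unadjusted p under 0.05 in limma), and the difference of differences was lower for 10, all of the cKO-only class. Quadriceps cKO exceeded quadriceps controls for 13 of the 15 (median 0.69), and soleus cKO fell below soleus controls for 1 (median -0.10). Promoters of 3 members are shown for the letters they share: 2 GAAA cores with any 2 bases between them, as in the interferon-stimulated response element, searched on both strands in the 250 bases before the start of transcription, with overlapping matches counted. Capitals mark the matches, and a match on the strand not shown appears as 2 TTTC cores.
Cxcl10 (chr5:92348890-92349139, minus strand): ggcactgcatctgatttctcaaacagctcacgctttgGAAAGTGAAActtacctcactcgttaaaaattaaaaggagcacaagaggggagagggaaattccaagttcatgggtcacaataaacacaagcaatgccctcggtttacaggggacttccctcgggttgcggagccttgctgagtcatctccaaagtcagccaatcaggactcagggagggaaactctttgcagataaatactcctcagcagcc
Ifit1 (chr19:34640639-34640888, plus strand): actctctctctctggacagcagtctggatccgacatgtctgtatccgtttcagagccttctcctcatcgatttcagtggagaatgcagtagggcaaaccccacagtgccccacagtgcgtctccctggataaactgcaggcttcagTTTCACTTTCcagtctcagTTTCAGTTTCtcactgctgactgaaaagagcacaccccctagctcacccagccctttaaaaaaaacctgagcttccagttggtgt
Ifit3 (chr19:34583279-34583528, plus strand): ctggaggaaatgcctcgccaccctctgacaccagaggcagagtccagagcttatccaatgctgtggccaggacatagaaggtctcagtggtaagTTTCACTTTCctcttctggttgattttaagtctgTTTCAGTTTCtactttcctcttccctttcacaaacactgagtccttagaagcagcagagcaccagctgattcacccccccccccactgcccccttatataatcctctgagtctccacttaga
Sequences are from RefSeq, build GRCm38.p6. The match begins 213 bases before the start in Cxcl10, 104 and 85 bases before it in Ifit1, and 156 and 122 bases before it in Ifit3. In all, 7 of the 13 tested members with a promoter in the table held the motif (53.8%), against 936 of 27025 genes (3.46%). A match is a description of these letters and not of a bound site.

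Cxcl10, a chemokine that draws T cells, read 3.67 to 4.36 in soleus cKO (median 3.97) and 4.91 to 6.35 in quadriceps cKO (median 6.27), against 3.66 to 4.0 in soleus controls (median 3.89) and 3.51 to 4.14 in quadriceps controls (median 3.58). The 6 quadriceps cKO arrays stood above all other 18, 5 of them at 6.2 or more and array 6 at 4.91, and 4 quadriceps control arrays lay under the dim limit. The difference in cKO was 4.16-fold (log2 -2.06, SE 0.17, adjusted p = 2.04e-09), and the difference of differences -2.23 (adjusted p = 9.08e-07). Ifit1, an inhibitor of viral RNA translation, read 4.10 to 5.61 in soleus cKO (median 4.43) and 5.08 to 7.34 in quadriceps cKO (median 5.94), and the muscles overlapped despite a 2.53-fold difference (adjusted p = 0.000752). Array 5 gave the highest Ifit1 of quadriceps cKO, and the soleus cKO array numbered 5 read 4.23. The RNA sensor Ifih1 was 1.87-fold lower in soleus cKO and Ifit2 1.79-fold lower, both without overlap, and Oasl2 was 1.6-fold and Ifit3 2.36-fold lower with overlap. The difference of differences of Ifit3 (-1.17, adjusted p = 0.0345) was lost when any of 11 single arrays was left out.

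Some genes of denervated and of immature muscle were also lower in soleus cKO, 10 of 22 and 9 of 16, against 16.9% of all genes. The acetylcholine receptor of the neuromuscular junction holds a gamma subunit before birth and again after the nerve is lost, and its genes are known targets of the myogenic factors at E-boxes. Of 22 denervation and junction genes, 2 were higher and 10 lower in soleus cKO (median -0.23), against 10 higher and 7 lower in controls (median 0.20). Of 16 embryonic and neonatal genes, 9 were lower and none higher (median -0.56), against 4 higher and 6 lower in controls (median -0.05). Soleus and quadriceps cKO both exceeded their controls for most embryonic genes, 14 and 13 of the 16, with medians of 1.07 and 1.71. The promoters of both receptor genes described next are shown for the E-box CAGCTG, which reads the same on both strands and is in capitals.
Chrng (chr1:87205561-87205810, plus strand): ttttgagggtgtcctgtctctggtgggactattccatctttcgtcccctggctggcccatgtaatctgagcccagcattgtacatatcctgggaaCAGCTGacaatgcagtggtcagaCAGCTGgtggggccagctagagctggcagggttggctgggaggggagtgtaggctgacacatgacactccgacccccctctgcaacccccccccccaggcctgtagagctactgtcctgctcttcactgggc
Chrna1 (chr2:73580339-73580588, minus strand): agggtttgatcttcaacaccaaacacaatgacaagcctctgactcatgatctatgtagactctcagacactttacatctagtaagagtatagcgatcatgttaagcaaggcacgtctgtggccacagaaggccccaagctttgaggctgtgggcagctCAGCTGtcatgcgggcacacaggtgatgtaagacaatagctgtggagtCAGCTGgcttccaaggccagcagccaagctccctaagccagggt
The E-boxes begin 155 and 132 bases before the start of Chrng and 92 and 44 bases before that of Chrna1. The motif was found for 6 of 16 denervation genes with a promoter in the table (37.5%), 3 of 12 embryonic genes (25%) and 3979 of 27025 genes (14.7%).

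Chrng, the gamma subunit, read 4.90 to 5.33 in soleus cKO (median 5.03) and 6.30 to 6.86 in quadriceps cKO (median 6.58), against 4.56 to 4.99 in soleus controls (median 4.67) and 4.45 to 4.91 in quadriceps controls (median 4.70). Quadriceps cKO stood above every other array and the control muscles overlapped. The difference was 2.81-fold in cKO (log2 -1.49, SE 0.10, adjusted p = 7.26e-11) and 1.02-fold in controls. Chrna1, the alpha subunit, read 7.82 to 8.29 in soleus cKO (median 8.05) and 9.25 to 9.59 in quadriceps cKO (median 9.41), against 7.87 to 8.50 in soleus controls (median 7.99) and 7.43 to 7.87 in quadriceps controls (median 7.67). The order of the muscles was turned round, 2.51-fold lower in soleus in cKO and 1.35-fold higher in controls (both called). The delta subunit gene Chrnd, a neighbour of Chrng on chromosome 1, was likewise 1.66-fold lower in cKO and 1.23-fold higher in controls. Runx1, a transcription factor induced by loss of the nerve, read 7.31 to 7.86 in soleus cKO (median 7.61) and 8.49 to 8.87 in quadriceps cKO (median 8.64), 2.1-fold lower in soleus in cKO and 1.5-fold higher in controls. Gadd45a, a growth arrest gene also counted among p53 targets, read 7.16 to 7.83 in soleus cKO (median 7.66) and 9.47 to 10.19 in quadriceps cKO (median 10), 5.09-fold lower in cKO against 2.67-fold in controls. Acetylcholinesterase (Ache) kept its direction, 2.2-fold lower in cKO and 2.68-fold in controls.

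The myogenic factors Myog and Myod1 were lower in soleus in both genotypes, Myog 2.55-fold in cKO and 1.54-fold in controls, Myod1 2.11-fold and 1.66-fold. Mymk, which fuses myoblasts, read 6.63 to 7.66 in soleus cKO (median 6.99) and 8.42 to 8.76 in quadriceps cKO (median 8.56), 2.92-fold lower in cKO with no called difference in controls. The neonatal myosin heavy chain Myh8 read 7.19 to 8.55 in soleus cKO (median 8.04) and 9.10 to 9.91 in quadriceps cKO (median 9.51), against 6.67 to 7.16 in soleus controls (median 6.85) and 6.44 to 7.10 in quadriceps controls (median 6.70). Both cKO muscles stood above the controls and did not overlap with each other, and the difference was 2.87-fold in cKO (difference of differences -1.66, adjusted p = 5.81e-05). Myl4, the embryonic light chain, was 1.94-fold lower in soleus cKO. The embryonic heavy chain Myh3, by contrast, read 11.24 to 12.06 in soleus cKO and 10.77 to 11.77 in quadriceps cKO, against 6.65 to 9.80 in soleus controls and 4.68 to 7.37 in quadriceps controls. Its cKO muscles overlapped (1.25-fold, adjusted p = 0.552) and lay far above all controls.

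**Figure D4:**
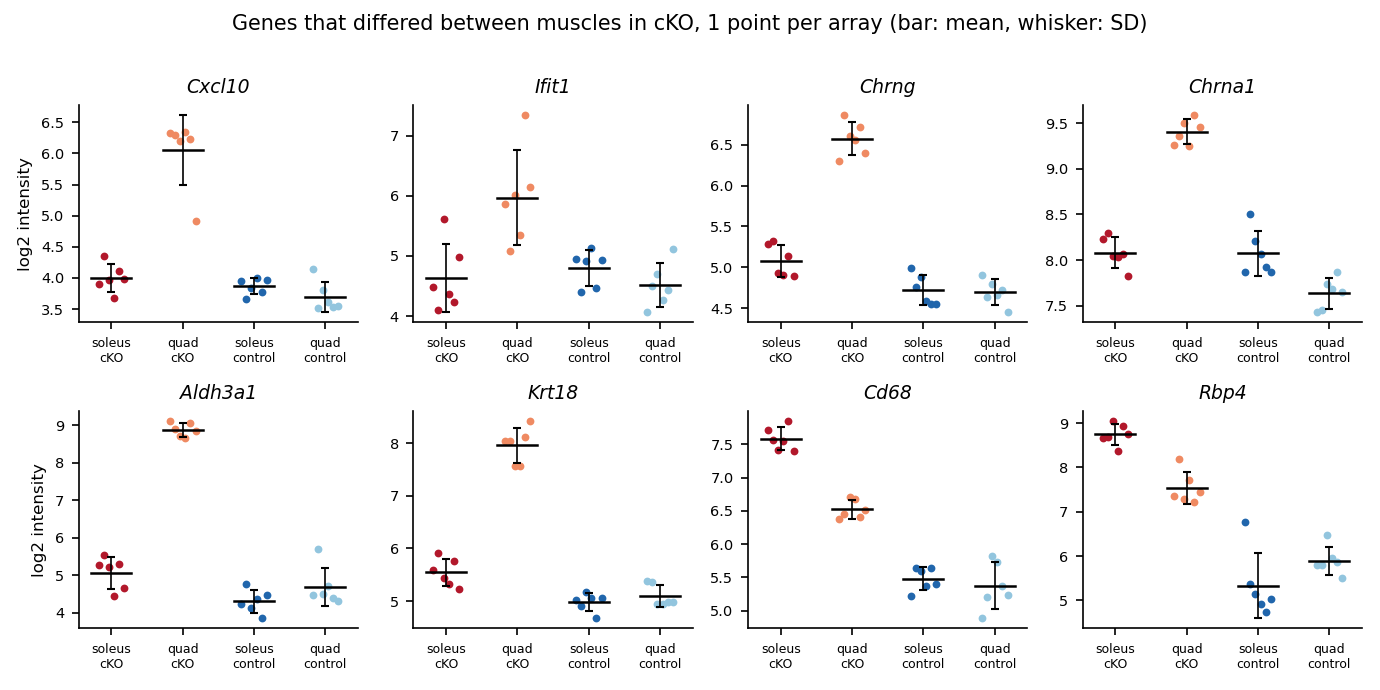
Log2 intensity of 8 genes on every array, with soleus cKO, quadriceps cKO, soleus controls and quadriceps controls from left to right; bars are means and whiskers SDs of 6 arrays. Quadriceps cKO stands apart for Cxcl10, Chrng, Chrna1, Aldh3a1 and Krt18, while Cd68 and Rbp4 are highest in soleus cKO.

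Further genes differed between the cKO muscles without a called difference in controls. Aldh3a1, an aldehyde dehydrogenase on chromosome 11 (61208510 to 61218418), read 4.43 to 5.53 in soleus cKO (median 5.24) and 8.65 to 9.11 in quadriceps cKO (median 8.88), against 3.85 to 4.76 in soleus controls (median 4.29) and 4.30 to 5.69 in quadriceps controls (median 4.49). Quadriceps cKO was apart from all other arrays, 14.1-fold above soleus cKO (log2 -3.82, SE 0.20, adjusted p = 1.61e-13), and the control muscles overlapped (1.3-fold, adjusted p = 0.143). Krt18, an intermediate filament keratin, read 5.24 to 5.92 in soleus cKO (median 5.52) and 7.56 to 8.42 in quadriceps cKO (median 8.05), 5.33-fold lower in soleus cKO with 1.09-fold in controls. Among genes higher in soleus cKO, Epgn, an epidermal growth factor family member, read 5.11 to 7.66 in soleus cKO (median 6.96) and 4.49 to 5.72 in quadriceps cKO (median 5.23), with overlap, and lay under the dim limit on all 6 soleus control arrays and 4 quadriceps control arrays. It was 3.08-fold higher in soleus cKO (adjusted p = 6.76e-05). Rbp4, the retinol carrier, read 8.38 to 9.04 in soleus cKO (median 8.72) and 7.21 to 8.18 in quadriceps cKO (median 7.40), without overlap, 2.31-fold higher (difference of differences 1.78, adjusted p = 0.000769).

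Some control differences were not called or were turned round in cKO. Mybph, a protein of the myosin-binding family, read 10.65 to 11.06 in soleus cKO (median 10.88) and 10.29 to 10.69 in quadriceps cKO (median 10.57), against 5.97 to 8.17 in soleus controls (median 6.22) and 9.93 to 10.51 in quadriceps controls (median 10.13). Soleus controls alone were low, and soleus cKO exceeded them by 4.40 on the log2 scale. The cKO muscles differed 1.26-fold (adjusted p = 0.272; 0.0108 without soleus control 1, and 0.00542 in the fit of the cKO arrays alone), while in controls soleus was 12.7-fold lower. The cardiac actin Actc1 gave the same picture, 1.24-fold in cKO (adjusted p = 0.338) and 5.43-fold lower in soleus in controls. Prkab2, a regulatory subunit of AMP-activated kinase, and Cyp4f39, a fatty acid hydroxylase, differed 1.07-fold and 1.05-fold in cKO (adjusted p = 0.52 and 0.741) and were 3.54-fold and 4.84-fold lower in soleus in controls. For Cyp4f39 the quadriceps was low in cKO (3.85 to 4.35) against quadriceps controls (5.68 to 7.16). Soleus cKO read 3.98 to 4.09, so both cKO muscles lay near the dim limit and a difference could be missed. Osteocrin (Ostn), a peptide secreted by muscle, was turned round: it read 6.88 to 7.99 in soleus cKO (median 7.48) and 8.21 to 9.42 in quadriceps cKO (median 8.96), against 7.45 to 8.55 in soleus controls (median 8.01) and 5.93 to 6.52 in quadriceps controls (median 6.16). The muscles did not overlap in either genotype, with soleus 2.55-fold lower in cKO and 3.56-fold higher in controls (difference of differences -3.18, adjusted p = 5.21e-08). The sodium and inositol transporter Slc5a3 was 1.59-fold lower in soleus in cKO and 2.62-fold higher in controls.

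Endoplasmic reticulum chaperones were 7 lower and none higher of 18 in soleus cKO (median -0.29) and 2 lower in controls, and the difference of differences was called for none at an adjusted p under 0.05 in limma (5 at an unadjusted p under 0.05). Dnajb11 (1.28-fold in cKO) and Herpud1 (1.29-fold) were lower in soleus in both genotypes. Of 16 p53 targets 2 were higher and 7 lower, and Mdm2, the ligase that degrades p53, read 9.21 to 9.45 in soleus cKO (median 9.34) and 9.89 to 10.08 in quadriceps cKO (median 9.99), 1.58-fold lower without overlap (1.02-fold in controls); its difference of differences (adjusted p = 0.0429) was lost when any of 15 single arrays was left out. Growth signalling genes were 2 higher and 13 lower of 36 (median -0.20), against 11 higher and 7 lower in controls (median 0.09). Akt2, a kinase downstream of insulin, read 9.84 to 9.92 in soleus cKO (median 9.89) and 10.65 to 10.77 in quadriceps cKO (median 10.67), 1.74-fold lower in cKO and 1.39-fold in controls, a larger difference (adjusted p = 0.0291) that was lost without quadriceps cKO 5 (0.0525), without the 3 control arrays (0.0713) and with arrays centred on their 75th percentile (0.063) or median (0.0886). Fgf7, a growth factor made by stromal cells, was 2.18-fold lower in soleus cKO with no called difference in controls, and the activin receptor Acvr1b was 2.06-fold lower in cKO and 2.86-fold in controls. Of 30 ubiquitin ligase and FoxO genes of atrophy 1 was higher and 5 were lower, among them Trim63, 1.85-fold lower in soleus in cKO and 1.48-fold in controls.

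Proteasome genes, which encode the machine that degrades tagged proteins, were 1 higher and 4 lower of 31 in soleus cKO (median -0.10), against 24 lower in controls (median -0.42), and the difference of differences was higher for 14. The number lower in cKO was 0, 9 and 1 with arrays centred on the 75th percentile, centred on the median and quantile normalized. Psmb5, a catalytic subunit, read 7.38 to 7.82 in soleus cKO (median 7.67) and 7.82 to 8.06 in quadriceps cKO (median 7.94), against 7.10 to 7.62 in soleus controls (median 7.19) and 7.83 to 8.29 in quadriceps controls (median 8.04). The difference of differences was 0.44 (adjusted p = 0.0335) and was lost when any of 12 single arrays was left out. The soleus cKO median lay between that of soleus controls and those of both quadriceps groups. Soleus cKO exceeded soleus controls for 22 of the 31 genes (median 0.36) and quadriceps cKO exceeded quadriceps controls for 8 (median 0.09). Against the 28.8% of all genes called in cKO, few integrated stress response genes (1 higher and 2 lower of 19) and cell cycle genes (0 and 1 of 22) were called. Cytosolic heat shock genes were 2 higher and 5 lower of 18, extracellular matrix genes 6 and 5 of 33, and oxygen handling and vessel growth genes 2 and 2 of 16. No circadian clock gene of 16 was called in cKO (3 at an unadjusted p under 0.05 in limma).

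**Figure D5:**
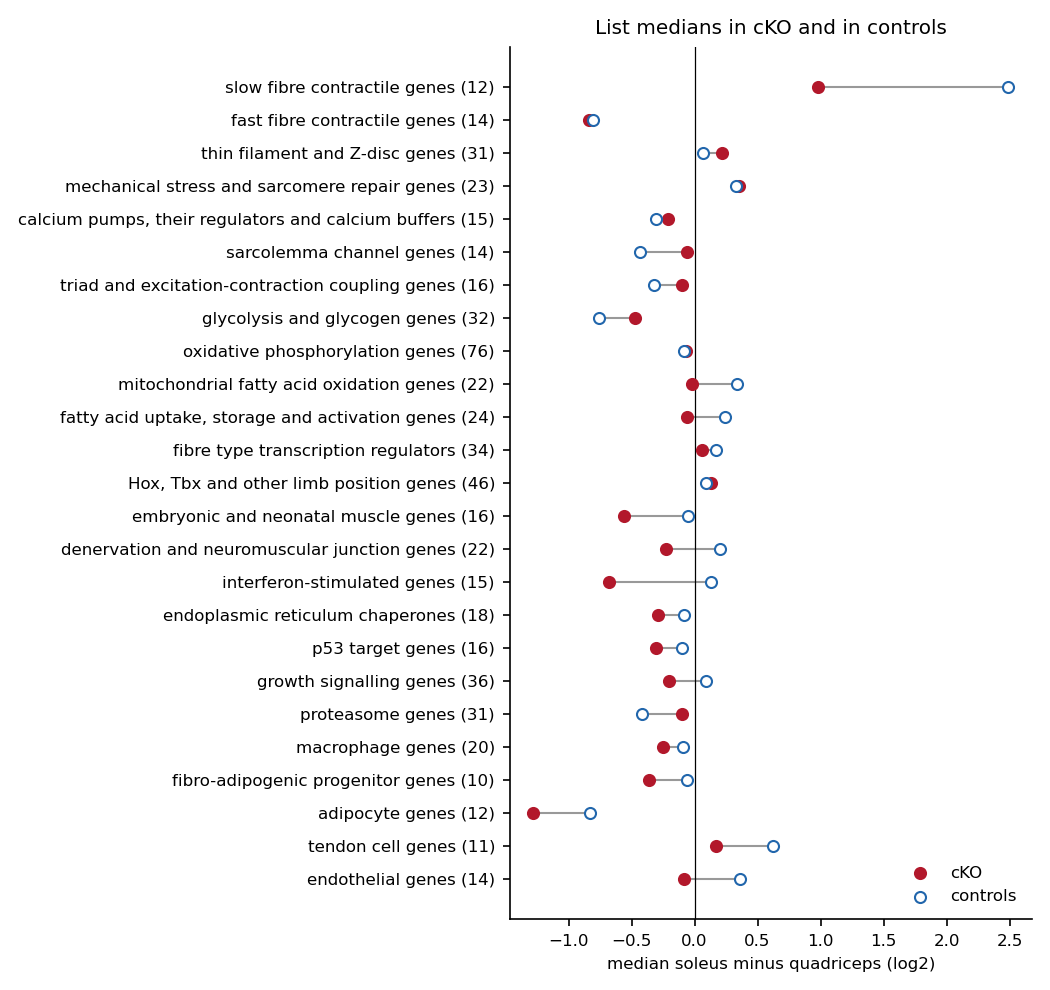
Median soleus minus quadriceps difference (log2) over the tested genes of 25 lists, number tested in brackets, filled circles for cKO and open circles for controls. The slow contractile median is 0.98 in cKO against 2.49 in controls, the fast contractile and glycolytic medians are negative in both genotypes, and the interferon median is negative in cKO only.

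Markers of other cells in the muscle were read alongside, and their part in the results above was not tested. Skeletal muscle fibre genes were bright in every group, with summed linear intensities of 46770 to 50210 in soleus cKO and 42080 to 47090 in quadriceps cKO. Of these 10 genes, 5 were higher and none lower in soleus cKO (median 0.12), against 1 higher and 2 lower in controls (median 0.06). Adipocyte genes were lower in soleus cKO for 11 of 12 (median -1.28) and lower in soleus controls for 6, with sums of 2368 to 4953 in soleus cKO and 4820 to 14070 in quadriceps cKO, and none was dim on all cKO arrays. Ucp1, the heat-producing carrier of brown fat, read 4.28 to 5.11 in soleus cKO (median 4.80) and 5.09 to 10.06 in quadriceps cKO (median 8.29), 10.5-fold lower in cKO and 14.3-fold in controls. Quadriceps values were spread over nearly 5 log2 units and touched the soleus range in array 6. The fat hormone adiponectin (Adipoq) was 2.64-fold lower in soleus in cKO and 1.84-fold in controls, and Pck1 and Thrsp, enzymes and regulators of fat synthesis, were 3.12-fold and 2.71-fold lower in cKO.

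Macrophage genes were 1 higher and 8 lower of 20 in soleus cKO (median -0.25), with sums of 1771 to 2590 in soleus cKO and 2584 to 3184 in quadriceps cKO, next to 1296 to 1673 and 1393 to 2259 in the control muscles. The members did not move as one. Cd68, a lysosomal protein, read 7.40 to 7.85 in soleus cKO (median 7.56) and 6.37 to 6.70 in quadriceps cKO (median 6.49), 2.09-fold higher and without overlap, whereas Lgals3 was 2.59-fold and Mpeg1 1.62-fold lower. All 3 were of the cKO-only class, though the difference of differences of Mpeg1 (adjusted p = 0.0402) was lost when any of 12 single arrays was left out. Of 5 lymphocyte genes tested 2 were lower in soleus cKO, among them Ptprc (1.48-fold), and Cd3g, Cd79a and Ms4a1, which define T and B cells, lay under the dim limit on all 12 cKO arrays. Cd3e (4.69 to 5.04 in soleus cKO, 4.47 to 5.05 in quadriceps cKO) and Cd8a (4.42 to 4.74 and 4.31 to 4.60) overlapped and were not called. Fibro-adipogenic progenitor genes were 2 higher and 7 lower of 10, with sums of 7753 to 9252 in soleus cKO and 9357 to 10530 in quadriceps cKO. Smoc2 was lower in soleus in both genotypes (1.82-fold in cKO, 2.03-fold in controls). Pi16 (6.48 to 6.95 in soleus cKO, 6.08 to 6.38 in quadriceps cKO) and Mfap5 (9.76 to 10.55 and 9.32 to 9.73) were higher in soleus cKO without overlap. Lymphocyte sums, which include Ptprc and the 3 dim genes, ran from 133.7 to 149.9 in soleus cKO and from 148.2 to 191.7 in quadriceps cKO. Progenitor sums, though not Pi16 and Mfap5, were thus higher in every quadriceps cKO array. Macrophage and lymphocyte sums lay mostly higher there with overlap, beside the higher interferon-stimulated genes (summed intensity 612 to 951.6 in soleus cKO and 960.1 to 1513 in quadriceps cKO). The part of these cell types in the interferon result was not tested.

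Endothelial genes showed no called difference between the cKO muscles, with 0 of 14 called at an adjusted p under 0.05 in limma and 0 at an unadjusted p under 0.05 (median -0.08; sums of 3203 to 3848 in soleus cKO and 3017 to 4018 in quadriceps cKO), against 8 higher in soleus in controls (median 0.36). The difference of differences was lower for 4, and for 9 without the 3 control arrays. Flt1, a receptor for vessel growth factors, read 7.69 to 8.14 in soleus cKO (median 7.97) and 7.84 to 8.23 in quadriceps cKO (median 8.03), with overlap, against 8.24 to 8.79 in soleus controls (median 8.70) and 7.91 to 8.70 in quadriceps controls (median 8.10). Tendon cell genes were 3 higher and 1 lower of 11 in soleus cKO, with sums of 4372 to 5635 in soleus cKO and 3253 to 3992 in quadriceps cKO. Tppp3, a marker of the tendon sheath, was among the higher members: it read 9.10 to 10.25 in soleus cKO (median 9.77) and 7.96 to 8.91 in quadriceps cKO (median 8.56), 2.4-fold higher and of the cKO-only class. Its difference of differences was 1.31, while the median of the list was -0.53. Pericyte and smooth muscle genes were 2 higher and 4 lower of 11, satellite cell genes 1 and 2 of 13, and Schwann cell genes 0 and 2 of 9, beside 11.9% and 16.9% of all genes. The red blood cell list kept 2 tested genes, neither of them called.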

How the data were processed

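RNA of 24 muscles (4 groups of 6) was labelled with the Affymetrix GeneChip WT Plus reagent, per the labels' protocols. The deposited values are linear intensities from RMA in Affymetrix Expression Console on mm10, per the submitters' processing notes; no version of either is given. They were taken to log2. Of 35557 probe sets, 21789 had 1 symbol, 1621 several and 12147 none listed in the platform annotation; 21698 matched RefSeq (GRCm38.p6). For 999 of 19938 genes the brightest of several probe sets was used. Genes above the array's 30th percentile on at least 6 arrays were tested, 15999, and 3939 dim ones were left out. With arrays, their number limits the precision.

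One limma model (limma 3.58.1, R 4.3.3) of 4 group means, tested on simulated data, gave all differences, with two-sided p adjusted by Benjamini-Hochberg over 15999 genes and called under 0.05. Labels call the samples biological replicates. Numbers 1 to 6 were taken to pair muscles of an animal, because deviations of soleus and quadriceps with the same number correlated in every pair (0.22 to 0.45 in cKO, 0.16 to 0.31 in controls), although control 5 correlated more with another number (0.26) and quadriceps cKO 4 and soleus cKO 4 have different ages in the labels (40 and 41 days). The block was an alternative, as were scaling, filter, probe set rule, spread, minimum fold and left-out arrays. The lists and the genes were chosen with earlier results of these data known. Named genes were the 15 largest called differences each way, the 8 largest differences of differences of each class other than kept, kept genes of at least 4-fold in both genotypes, and up to 6 of each list by p. Myh2, Myh3, Sln, Csrp3, Chrnd, Phka1, Fbp2, Hoxc8, Hoxa13, Hoxd10, Hoxd11, Tbx4 and Tbx15 lie outside this rule and were chosen after their values were seen.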

Additional observations from a re-analysis of the deposited data

Results flagged for a closer look

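The muscle difference in cKO differed from that in controls for 73 named genes, by the test of the difference of differences (limma, adjusted p under 0.05 over all 15999 genes). The values below are that difference on the log2 scale, cKO minus control, and 6 arrays stand in every group. A negative value means that soleus relative to quadriceps was lower in cKO than in controls. Among slow fibre contractile, pump and M-band genes the values were Myh7 -1.93, Tnnc1 -1.76, Tnni1 -1.72, Tnnt1 -1.64, Myoz2 -1.24, Myl3 -0.71, Atp2a2 -1.62, Casq2 -1.28 and Myom3 -1.33. Among fast fibre contractile and M-band genes the values were Myh4 -2.33, Myh1 -1.72, Myh2 -1.02, Tnni2 -0.40, Tnnt3 -0.36 and Myom2 -1.06. Among calcium handling, channel and buffer genes the values were Pvalb -2.30, Atp2a1 -0.34, Mrln 0.84, Sln -1.13, Ryr3 0.74, Kcnc4 0.62, Atp1b2 1.30 and Car14 -1.38. Among Z-disc and sarcomere-associated genes the values were Ldb3 0.49, Csrp3 -1.44, Mybph 4.0 and Actc1 2.13. Among metabolic genes the values were Gpd2 0.92, Ldha -0.48, Idh2 -0.79, Hadhb -0.35, Acot2 -1.09, Gatm -0.83, Gamt 1.74, Prkab2 1.73 and Cyp4f39 2.21. Among regulators and growth genes the values were Eya4 0.67, Prox1 -1.01, Mstn 1.85, Smarca1 -1.64, Akt2 -0.32, Fgf7 -1.39, Mdm2 -0.69, Psmb5 0.44 and Gadd45a -0.93. Among interferon-stimulated genes the values were Cxcl10 -2.23, Ifit1 -1.62, Ifit3 -1.17, Ifih1 -0.79, Ifit2 -0.98 and Oasl2 -0.79. Among denervation and embryonic genes the values were Chrng -1.51, Chrna1 -1.76, Chrnd -1.03, Runx1 -1.66, Mymk -1.23, Myh8 -1.66 and Myl4 -1.12. Among marker genes of other cells the values were Cd68 0.95, Lgals3 -1.22, Mpeg1 -0.68, Ptprc -0.78, Flt1 -0.56 and Tppp3 1.31. Among the remaining named genes the values were Aldh3a1 -3.44, Krt18 -2.29, Epgn 1.79, Rbp4 1.78, Tecrl -1.53, Rspo3 -0.78, Mettl21c 1.31, Ostn -3.18 and Slc5a3 -2.06.

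Of 274 sets of 6 cKO values (1 per named gene and muscle, with Idh3a, Pi16 and Mfap5 not included), 15 (5.47%) had 1 array apart from the 5 others by Dixon's test of a gap against the range, and chance gives about 1 in 20. The highest soleus cKO array did so for Myoz2 (11.94), Myh4 (9.57), Myom3 (10.84) and Myh3 (12.06). The lowest soleus cKO array did so for Gatm (6.26). The highest quadriceps cKO array did so for Myl4 (8.93) and Akt2 (10.77). The lowest quadriceps cKO array did so for Tnnc2 (12.25), Atp1b2 (9.03), Maf (8.73), Eya4 (7.63), Sim2 (5.81), Uchl1 (6.25), Cxcl10 (4.91) and Gadd45a (9.47).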

How the results depend on the processing

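No named gene's called difference changed sign under the alternatives. The targeted gene Neb stayed lower in cKO when single arrays were left out (log2 -1.21 to -1.08 in soleus and -1.51 to -1.38 in quadriceps). The share of cKO calls that were higher in soleus was 68.6% with arrays centred on the 75th percentile and 24% when centred on the median; the other shares moved less except at a minimum of 1.5-fold. The counts that compare the genotypes moved most. With the animal as a fixed replicate block the other-size and opposite-sign classes held 374 and 265 genes, and without number 4 the other-size class held 331. As a random replicate block the animal gave 2952 differences of differences, 359 genes of another size, 842 cKO-only and 260 opposite. Array weights gave 3570, 500, 1047 and 366 for the same 4, with 1550 control-only. Without soleus control 1 and quadriceps controls 1 and 6, an alternative chosen after seeing the data, the 4 counts were 3724, 394, 957 and 393, with 1807 control-only. With a minimum of 1.5-fold the counts fall by construction, to 836 called in cKO (26.2% of them higher), 1253 in controls, 914 differences of differences, and 326 kept, 70 of another size, 353 control-only, 181 cKO-only and 10 opposite genes. Leaving out single arrays gave 3569 to 5323 calls in cKO (37.7% to 44.5% higher), 4745 to 5759 in controls, 1576 to 2856 differences of differences, 1478 to 2156 kept, 159 to 286 of another size, 751 to 1431 control-only, 418 to 789 cKO-only and 101 to 227 opposite, the last without quadriceps control 6. The cause of these shifts was not tested.

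Single named calls also moved. The difference of differences was lost under 1 scaling for Sln (adjusted p = 0.0646), Ldha (0.0602) and Flt1 (0.0525), by limma, and for Atp2a1 (0.0642) and Hadhb (0.0793) when arrays were centred on the median. With the animal as a fixed replicate block without number 4 it was lost for Atp2a1 (0.0647), Hadhb (0.0601), Mdm2 (0.0777) and Psmb5 (0.0531), and so was the cKO difference of Psmb5 (0.0752). Calls that single arrays decide were also lost under other settings: 4 for Myh4, 5 for Rspo3, 3 each for Ifit3, Mpeg1 and Akt2, and 2 for Mdm2. In the cKO muscle with the lower signal, Tbx5, Hoxa13, Mstn and Tspan8 lay under the dim limit on 2, 3, 4 and 6 arrays, so the size of their differences is less certain. The 6 arrays of a group gave a median SE of 0.097 for the cKO difference and of 0.14 for the difference of differences, so small changes of a kept difference could not be seen.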
